A study of Mus musculus with 4 samples.

Results

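The J alpha genes of the mouse T cell receptor locus were described in T cells from MC38 tumours, by the place of each gene between the V alpha genes and the constant gene. All deposited alpha chain contigs (assembled receptor transcripts of a cell) were taken and grouped by the number in the J gene's name, in the bins 50 or more, 40-49, 30-39, 20-29, 10-19 and below 10. That gave 729 alpha contigs of 1442 receptor contigs, of which 393 came from the WT and 336 from the p53 KO library. The other 713 contigs were beta chains. MC38 is a mouse colon carcinoma line, and both genotypes belong to the tumour cells, in which p53 was left intact (WT) or knocked out with CRISPR-Cas9 (p53 KO). The host mice were C57BL/6J, and every tumour came from a host given anti-PD-1, a checkpoint-blocking antibody directed at a brake on T cells. Each genotype had 1 receptor library made from whole tumour, so no test between genotypes was possible, and the libraries were compared by shares, each with its 95% interval by the exact Clopper-Pearson method (counting error alone). The sources used here give neither the number of mice behind a library nor whether the knockout line is 1 clone, and tumour genotype and library cannot be told apart.

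An alpha chain is made in the thymus by joining 1 V gene to 1 J gene and cutting out the DNA between them. The V genes lie on one side of the J array and the constant gene TRAC on the other, and a first joining can be followed by another that uses a V gene farther out and a J gene nearer to TRAC. The J gene encodes the end of the third complementarity-determining region (CDR3), the loop that touches the peptide, and the framework stretch that follows it.

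RefSeq's gene table for GRCm38.p6 (mm10) listed 60 TRAJ genes over 63.8 kb, chr14:54155005-54218842, with TRAC at chr14:54220521-54224198. Of these, 51 were segments and 9 pseudogenes. The libraries held 43 of the 51 segments and 0 of the 9 pseudogenes. The segments TRAJ59, TRAJ46, TRAJ41, TRAJ29, TRAJ25, TRAJ20, TRAJ19 and TRAJ3 were in no contig. By contigs 42 genes were found in WT and 40 in p53 KO, with 39 in both. All 82 V and 43 J gene names matched RefSeq. The alpha contigs stood for 251 clonotypes in 359 WT cells and 184 clonotypes in 300 p53 KO cells, a clonotype being the identifier that the authors deposited. The median contig rested on 5 UMIs (unique molecules) in WT and 4 in p53 KO. Contigs of a single UMI were 7.12% in WT and 12.5% in p53 KO. A count of 0 allows a share of clonotypes of up to 1.20% in WT and 1.63% in p53 KO (3 counts of the total). Both libraries together held 0 shared cell barcodes. Each clonotype was counted once, by its alpha contig with most UMIs, unless stated otherwise.

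The J ends that carry most of what follows are shown in order from V to C, since they fix the last CDR3 residues and much of the loop's length. Each is the consensus of the deposited chains of that gene, 5′ to 3′ on the coding strand from the J-encoded end of the CDR3 through framework 4, and capitals mark the CDR3 bases that all distinct chains of the gene shared.
TRAJ57: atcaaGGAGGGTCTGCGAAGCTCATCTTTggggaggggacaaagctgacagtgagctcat
TRAJ56: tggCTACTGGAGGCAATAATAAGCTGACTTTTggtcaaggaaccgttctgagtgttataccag
TRAJ43: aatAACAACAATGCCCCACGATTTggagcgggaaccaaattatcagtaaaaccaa
TRAJ40: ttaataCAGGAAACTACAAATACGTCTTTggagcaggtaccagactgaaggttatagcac
TRAJ37: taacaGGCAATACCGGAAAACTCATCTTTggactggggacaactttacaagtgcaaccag
TRAJ31: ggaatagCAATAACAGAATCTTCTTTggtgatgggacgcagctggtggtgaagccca
TRAJ30: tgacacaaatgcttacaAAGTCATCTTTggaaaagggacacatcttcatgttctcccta
TRAJ27: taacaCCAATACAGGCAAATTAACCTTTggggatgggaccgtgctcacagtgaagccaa
TRAJ23: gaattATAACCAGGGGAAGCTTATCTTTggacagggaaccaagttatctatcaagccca
TRAJ18: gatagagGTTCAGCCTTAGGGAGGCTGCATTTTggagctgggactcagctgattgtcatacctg
TRAJ7: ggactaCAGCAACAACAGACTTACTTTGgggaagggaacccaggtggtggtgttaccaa

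Usage was highest in the middle of the array in both libraries, and p53 KO had a smaller share of clonotypes near V and a larger one near C than WT. In the bin 50 or more lay 21 of 251 clonotypes of the WT library (8.37%, 5.25 to 12.5), beside 10 of 184 in the p53 KO library (5.43%, 2.64 to 9.77). The bin 40-49 held 47 (18.7%, 14.1 to 24.1) and 23 (12.5%, 8.09 to 18.2). Both bins next to V were thus larger in WT, though the intervals of the libraries overlapped in each. The bin 30-39 was the largest in both, with 76 clonotypes in WT (30.3%, 24.7 to 36.4), beside 50 for p53 KO (27.2%, 20.9 to 34.2). The bin 20-29 held 56 (22.3%, 17.3 to 28.0) and 46 (25%, 18.9 to 31.9). These middle bins differed by less than their intervals, and the order of each turned when cells were counted (27.3% of WT and 32.3% of p53 KO cells in 30-39, and 22.8% and 19.7% in 20-29). The bin 10-19 held 34 clonotypes in each library, which was 13.5% in WT (9.57 to 18.4), beside 18.5% for p53 KO (13.1 to 24.9). The bin below 10 held 17 (6.77%, 3.99 to 10.6) and 21 (11.4%, 7.21 to 16.9). The bins nearest to C were thus larger in p53 KO, again with overlapping intervals. In 10-19 the p53 KO minus WT difference of 4.93 points turned to -0.511 when all contigs were counted and to -0.00605 with every distinct alpha sequence counted once.

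**Figure D1:**
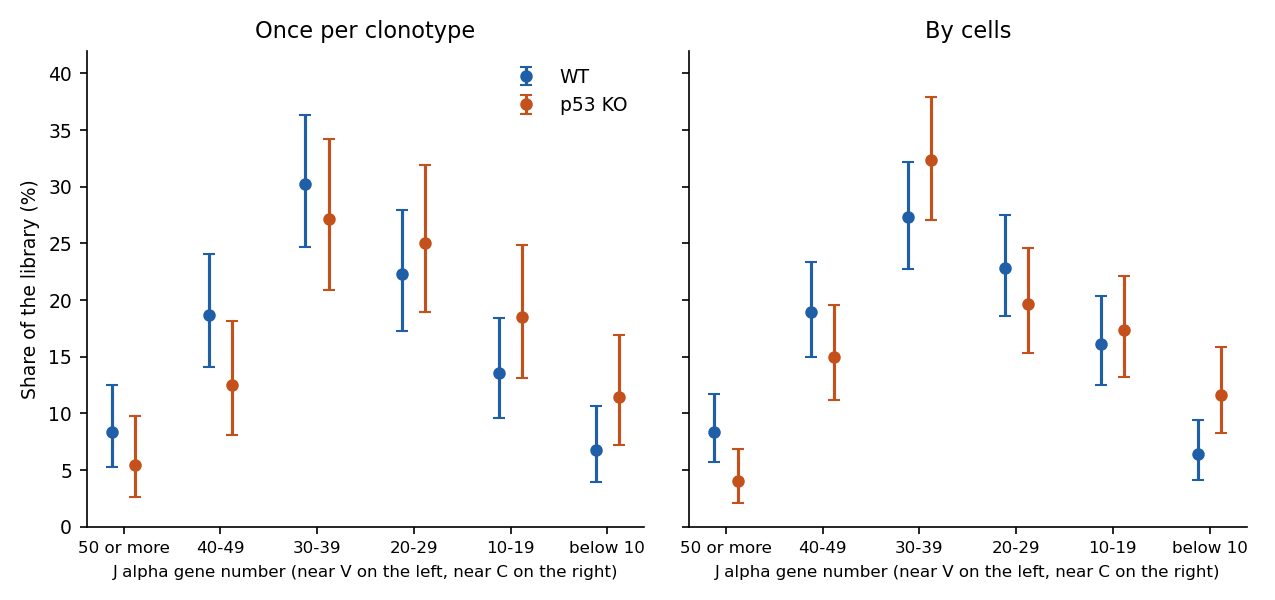
Share of each library (percent, y axis) in each bin of J alpha gene numbers (x axis), once per clonotype on the left and by cells on the right, with exact 95% intervals as bars. WT points lie above p53 KO points in the 2 bins next to V and below them in the 2 bins next to C in both panels, while the order in 30-39 and 20-29 differs between the panels.

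Over both bins next to V, genes numbered 40 or more made up 68 of 251 clonotypes in WT (27.1%, 21.7 to 33.04), beside 33 of 184 for p53 KO (17.9%, 12.7 to 24.3). Genes numbered below 20 were in 51 (20.3%, 15.5 to 25.8) and 55 (29.9%, 23.4 to 37.1). The separate intervals of the libraries overlapped in both sums. By cells the shares were 27.3% and 19% for 40 or more and 22.6% and 29% for below 20. The p53 KO minus WT difference was -9.16 points for 40 or more (Newcombe interval -16.7 to -1.13) and 9.57 for below 20 (1.38 to 17.9), which treats clonotypes as independent and covers counting error alone. Clonotypes that shared an alpha sequence (16 of 251 in WT and 39 of 184 in p53 KO) are not independent. With 1 library per genotype, these intervals cannot show a difference between genotypes, and none is given for the alternatives that follow. With recurring chains counted once, an alternative added after seeing the data, the share at 40 or more was 26.9% (65 of 242) in WT and 20% (32 of 160) in p53 KO. The differences were then -6.86 and 8.09 points. With every distinct alpha sequence counted once, second chains of a cell included, the share at 40 or more was 25.5% of 271 WT and 21.9% of 183 p53 KO chains, and the differences were -3.60 and 6.098 points. Without the TRAV11 and TRAV6-6 chains of TRAJ18 described below, the difference below 20 was 5.54 points. The median J number was 31 in WT (quartiles 21.5 and 40) and 27 in p53 KO (18 and 37), which put the median clonotype 32.6 kb and 28.2 kb from TRAC. Since the bins hold between 7 and 10 annotated segments, usage per segment was also compared. Per annotated segment, found or not, it was highest in 30-39, at 3.36% in WT and 3.02% in p53 KO. In p53 KO the bin 30-39 held 50 clonotypes in 8 genes found and 20-29 held 46 in 7. The order of these bins in p53 KO thus turns if segments not found are left out. The lowest values were 0.968% in the bin below 10 in WT and 0.776% in the bin 50 or more in p53 KO. In each library the clonotype shares of both end bins had overlapping intervals.

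Usage of single genes was uneven in both libraries: the 3 most used genes took 23.1% of clonotypes in WT and 25.5% in p53 KO. Of the 43 genes, 18 were in 10 or more clonotypes over both libraries, and 14 of these differed by 1.5-fold or more, 7 higher and 7 lower in p53 KO. The same rule applied to all 59 V and J genes of both chains that reached 10 clonotypes, these 18 included, gave 32 past the fold (54.2%), with 28.8% higher and 25.4% lower. Differences of that size were therefore common at these counts, though more frequent among the J alpha genes (14 of 18) than in the whole set (32 of 59). The reason was not tested. TRAJ18 alone of the 43 had intervals that lay apart. The other 25 genes were in fewer than 10 clonotypes each.

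**Figure D2:**
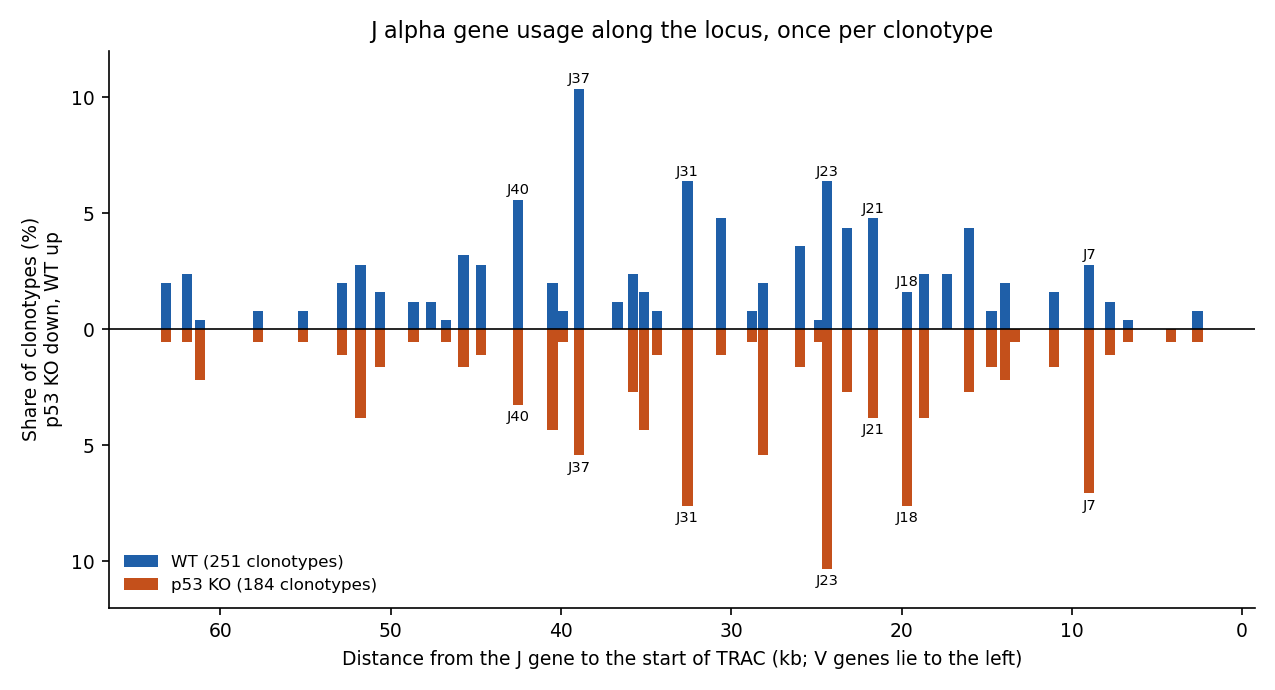
Share of clonotypes (percent, y axis) for each J alpha gene at its distance to the start of TRAC (kb, x axis), with WT bars upward and p53 KO bars downward. TRAJ37 is the tallest WT bar (10.4%) and TRAJ23 the tallest p53 KO bar (10.3%), and TRAJ18 and TRAJ7 are taller in p53 KO.

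Among the genes nearest to V, TRAJ57 (chr14:54158507-54158569) led its bin in WT and TRAJ56 (chr14:54159263-54159325) in p53 KO. TRAJ57 was in 6 WT clonotypes (2.39%) and 1 p53 KO clonotype (0.543%), and TRAJ56 in 1 (0.398%) and 4 (2.17%). In the bin 40-49, TRAJ40 (chr14:54177921-54177981) led in WT, with 14 WT clonotypes (5.58%, 3.08 to 9.18) and 6 in p53 KO (3.26%, 1.21 to 6.96). It was lower in p53 KO by cells as well, at 5.85% of WT and 2.67% of p53 KO cells. TRAJ49 (chr14:54168686-54168744) led the bin in p53 KO, with 7 clonotypes in each library (2.79% and 3.80%). TRAJ43 (chr14:54174742-54174798) was in 8 WT (3.19%) and 3 p53 KO clonotypes (1.63%), but in 14 WT and 21 p53 KO cells, 18 of the latter from 1 clonotype. The order of TRAJ43 thus depended on what was counted. TRAJ47, with the shortest J-encoded CDR3 end, was in 3 WT clonotypes and 1 p53 KO clonotype.

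In the bin 30-39, TRAJ37 (chr14:54181518-54181577) was the most used gene of the WT library. It was in 26 clonotypes in WT (10.4%, 6.88 to 14.8) but 10 in p53 KO (5.43%, 2.64 to 9.77), a ratio of 0.525. By cells the order turned, with 33 WT (9.19%) and 40 p53 KO cells (13.3%), of which 28 were 1 clonotype. TRAJ31 (chr14:54187895-54187951) was in 16 WT (6.37%, 3.69 to 10.1) and 14 p53 KO clonotypes (7.61%, 4.22 to 12.4), which differed by less than the intervals. TRAJ30 (chr14:54189866-54189924) was in 12 WT (4.78%, 2.49 to 8.20) and 2 p53 KO clonotypes (1.09%, 0.132 to 3.87), and in 18 WT and 2 p53 KO cells. Its ratio of 0.227 was the lowest among the genes past the fold. TRAJ39 (chr14:54179962-54180024) was in 5 WT (1.99%) and 8 p53 KO clonotypes (4.35%), but 5 of those 8 carried the same TRAV3-3 chain. TRAJ33 (chr14:54185358-54185414), which mucosal-associated invariant T (MAIT) cells join to TRAV1 in their invariant chain, was in 4 WT (1.59%) and 8 p53 KO clonotypes (4.35%). None of the TRAJ33 contigs had TRAV1 in either library (0 contigs). TRAJ33 took 6 WT and 19 p53 KO cells, 11 of the latter from 1 clonotype. TRAJ32, one of the genes with the longest J-encoded CDR3 end, was in 2 clonotypes of each library.

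In the bin 20-29, TRAJ23 (chr14:54196081-54196140) led in both libraries. It was in 16 WT (6.37%, 3.69 to 10.1) and 19 p53 KO clonotypes (10.3%, 6.33 to 15.7), and in 28 cells of each. TRAJ27 (chr14:54192303-54192361) was in 5 WT (1.99%, 0.650 to 4.59) and 10 p53 KO clonotypes (5.43%, 2.64 to 9.77), a ratio of 2.73. With every distinct alpha sequence counted once, second chains included, its ratio was 1.69. TRAJ26 (chr14:54194490-54194549) was in 9 WT (3.59%) and 3 p53 KO clonotypes (1.63%), a ratio of 0.455. That ratio was 0.798 by cells and 0.916 with 3 or more UMIs, and it turned to 1.06 by contigs. TRAJ21 (chr14:54198790-54198846) was in 12 WT (4.78%) and 7 p53 KO clonotypes (3.80%). TRAJ24 was in 1 clonotype of each library. The intervals of the libraries overlapped for each of these genes.

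Nearest to C, TRAJ18 and TRAJ7 were in larger shares of p53 KO than of WT clonotypes. TRAJ18 (chr14:54200777-54200842) encodes the end of the invariant alpha chain of natural killer T (NKT) cells, which joins it to TRAV11. It was in 4 WT (1.59%, 0.436 to 4.03) and 14 p53 KO clonotypes (7.61%, 4.22 to 12.4), a ratio of 4.77. The 4 WT clonotypes used 4 V genes, while 5 of the 14 p53 KO clonotypes had TRAV11 and another 5 had a single TRAV6-6 chain. Without these 10 clonotypes 4 were left in each library, and the p53 KO share of the bin 10-19 was 13.8% (24 of 174), beside 13.5% in WT. The shares of that bin were thus nearly equal without both chains, a comparison chosen after seeing the data. By cells TRAJ18 was in 14 WT (3.90%) and 27 p53 KO cells (9%), 11 of the latter from 1 clonotype. The 5 TRAV11 clonotypes were in 1 cell each, with 1 to 3 UMIs. Among contigs with 3 or more UMIs the ratio of TRAJ18 was 3.05 (4 WT and 8 p53 KO clonotypes). TRAJ7 (chr14:54211470-54211528) was in 7 WT (2.79%, 1.13 to 5.66) and 13 p53 KO clonotypes (7.07%, 3.82 to 11.8). By cells it was in 12 WT (3.34%) and 27 p53 KO cells (9%), with no p53 KO clonotype of it above 6 cells. TRAJ15 (chr14:54204422-54204481) led the bin 10-19 in WT, with 11 WT (4.38%) and 5 p53 KO clonotypes (2.72%). TRAJ13 was in 2 and 3 clonotypes, and TRAJ2, the last gene before TRAC to be found, in 2 and 1. TRAJ16, chosen after its values were seen, was in 6 WT (2.39%) and 0 of 184 p53 KO clonotypes. The latter allows a share of up to 1.63% by 3 counts of the total, and up to 1.98% by the exact interval.

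The clonotype counts were touched by alpha chains that recurred, mostly with different beta chains or with none, since the deposited identifiers treat these as separate clonotypes. A WT chain of TRAV16N with TRAJ34 and a p53 KO chain of TRAV9D-3 with TRAJ7 each had 2 clonotypes with a beta chain but 1 distinct beta chain. In WT, 16 of 251 clonotypes (6.37%) had the alpha nucleotide sequence of another clonotype of the library. In p53 KO the figure was 39 of 184 (21.2%). These clonotypes came from 7 alpha sequences in WT and 15 in p53 KO. Of the 16 WT clonotypes, 5 used a J gene numbered 40 or more, 9 one from 20 to 39 and 2 one below 20. Of the 39 p53 KO clonotypes, 2, 24 and 13 did. The p53 KO chains found in most clonotypes were TRAV6-6 with TRAJ18, in 16 cells with 2 to 11 UMIs, and TRAV3-3 with TRAJ39, in 11 cells with 4 to 12 UMIs, each in 5 clonotypes. Chains of TRAJ17, TRAJ37 and TRAJ7 were each in 3. In WT the most were 3 clonotypes each for a TRAJ37 and a TRAJ57 chain. None of the recurring nucleotide sequences was in the other library. The part of chain loss or of cells captured together in this recurrence was not tested.

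The libraries had CDR3 alpha loops of like length, and J genes differed in it. The mean CDR3 alpha was 13.5 residues ± 1.24 (SD, n = 251 clonotypes) in WT and 13.7 ± 1.28 (SD, n = 184) in p53 KO, with ranges of 10 to 17 and 11 to 17. Loops of 14 or more residues made up 53.4% in WT (47.0 to 59.7), beside 56.0% for p53 KO (48.5 to 63.3). By bin, that share was highest at the ends of the array. In WT it was 66.7% (14 of 21) in 50 or more and 76.5% (13 of 17) below 10, and between 44.6% and 56.6% in the 4 bins between. In p53 KO it was 80% (8 of 10) and 66.7% (14 of 21) at the ends, and 43.5%, 56%, 47.8% and 61.8% from 40-49 to 10-19. The intervals of the end bins overlapped those of the middle bins in both libraries. Among contigs with 3 or more UMIs, the p53 KO share in 50 or more was 60% (3 of 5), below the 62.2% (23 of 37) in 30-39.

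The annotated J-encoded part of the CDR3 ran from 24 bases in TRAJ47 to 35 in 5 genes, TRAJ18, TRAJ32 and TRAJ2 among them. Its median over genes, each gene counted once, was 32 bases in the bin 50 or more, 31 below 10 and between 29 and 29.5 in the other bins. Weighted by clonotypes of both libraries, the mean was 32.6 bases in 50 or more but 29.03 below 10. It was 30.9 in 10-19, 28.97 in 40-49, 28.3 in 30-39 and 28.4 in 20-29. By clonotypes the bin below 10 was thus not among the longest. Among the 29 genes with 5 or more clonotypes, mean CDR3 length ran from 12.2 residues for TRAJ13 to 15.2 for TRAJ56. Over these 29 genes the J-encoded length and the mean CDR3 length went together (Pearson r = 0.699, Spearman rho = 0.660). The gene's number and the mean CDR3 length hardly did (r = 0.160). Both are descriptions across genes that share the 2 libraries, and genes are not independent replicates. TRAJ37 and TRAJ23 show the residual spread: with 29 J-encoded bases each, they had mean lengths of 14.3 and 13.3 residues. TRAJ31, with 26 bases, had 12.6, and TRAJ18, with 35, had 14.7.

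**Figure D3:**
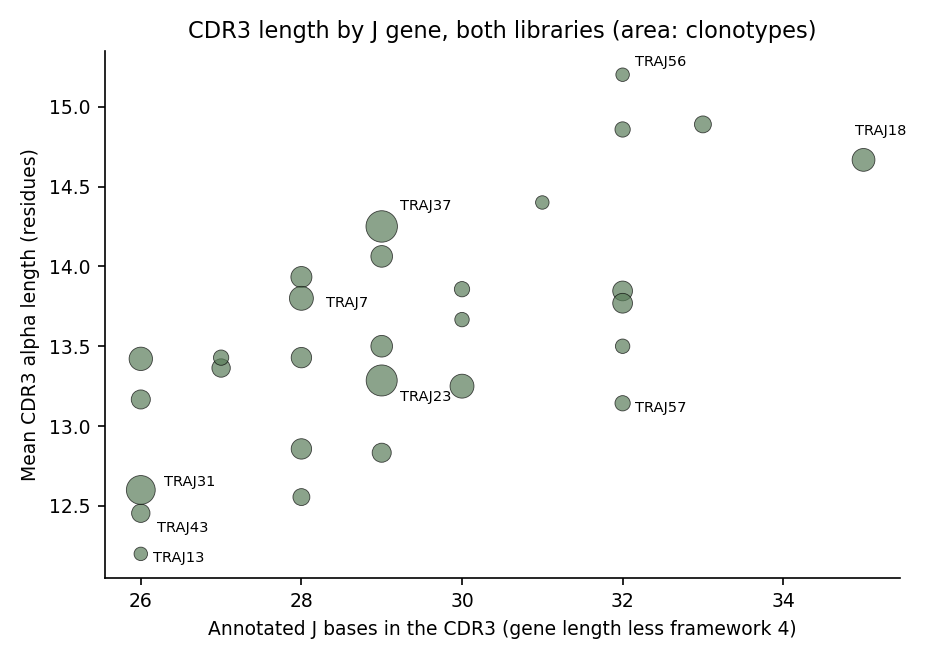
Mean CDR3 alpha length (residues, y axis) against the annotated J bases in the CDR3 (x axis) for the 29 genes with 5 or more clonotypes, both libraries together, with the area of a point rising with its clonotypes. Points rise from TRAJ13 at 12.2 residues to TRAJ56 at 15.2, and TRAJ57 lies low for its 32 bases at 13.1.

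The J gene supplied most of the loop. The match to the J consensus was read for genes with 5 or more distinct chains (229 WT and 172 p53 KO clonotypes). A median of 26 bases at the end of the CDR3 matched in both libraries (quartiles 24 and 28 in each). The median matched part was 64.3% of the CDR3 in WT and 64.4% in p53 KO. The bases before that match had a median of 14 in both. They hold V gene and junction bases and can hold J bases as well, since the consensus reached the annotated J length in 16 of these 30 genes. Among genes below 20, the median match was 27 bases in WT and 28 in p53 KO, and the bases before it were 14 and 12. The chains of TRAV11 and TRAV6-6 with TRAJ18 are among the latter. Residues shared by every chain of a gene differed in number. All 13 distinct TRAJ18 chains ended in SALGRLHF, all 37 TRAJ37 chains in GNTGKLIF and all 38 TRAJ23 chains in NQGKLIF. By contrast, the 21 distinct TRAJ21 chains shared LYF alone and the 15 of TRAJ30 shared VIF alone, so the capitals in the TRAJ30 sequence above are few.

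Several J genes gave the same last residues, and these spread over the array unevenly. The ending KLIF was in 82 clonotypes (50 WT, 19.9%, and 32 p53 KO, 17.4%) from TRAJ57, TRAJ37, TRAJ32 and TRAJ23. None of those clonotypes used a gene below 20. KLTF came from 11 genes, from TRAJ56 to TRAJ2, and was in 73 clonotypes (34 WT, 13.5%, and 39 p53 KO, 21.2%). Of these, 20 used a gene numbered 40 or more and 25 one below 20. The ending RIFF came from TRAJ31 alone (30 clonotypes) and RLTL from TRAJ7 alone (20 clonotypes). The last residue of the CDR3 is usually phenylalanine, and it was in 237 WT and 161 p53 KO clonotypes. Leucine, from TRAJ7 and TRAJ44, closed 8 WT and 14 p53 KO loops, and tryptophan, from TRAJ33 and TRAJ38, closed 6 and 9.

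J genes near V were joined mostly to V genes near J. The annotated TRAV genes spanned chr14:52427967-53977678 and were split into 3 parts of equal length, the part nearest to J being chr14:53461108-53977678 with 43 of the 130 annotated genes. In WT, J genes numbered 40 or more were in 53 of 117 clonotypes with a V gene of that part (45.3%, 36.1 to 54.8) and in 15 of 134 with a V gene farther out (11.2%, 6.40 to 17.8). In p53 KO they were in 26 of 77 (33.8%, 23.4 to 45.4) and 7 of 107 (6.54%, 2.67 to 13.0). The intervals of near and far V genes lay apart in each library. The median J number was 38 in WT and 33 in p53 KO for V genes near J, and 23 in both for the others. Near V genes also had fewer J genes below 20 in WT, at 8.55% (10 of 117) beside 30.6% (41 of 134). In p53 KO these were 22.1% (17 of 77) and 35.5% (38 of 107), and 10.4% (7 of 67) of near V genes without the TRAV11 and TRAV6-6 chains of TRAJ18. The middle and the farthest part of the V region differed by less than their intervals: J genes of 40 or more made up 11.8% and 10.6% in WT, and 5.26% and 8% in p53 KO. The share of clonotypes with a near V gene was 46.6% in WT and 41.8% in p53 KO, and within near V genes the p53 KO minus WT difference in J of 40 or more was -11.5 points, with overlapping intervals.

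**Figure D4:**
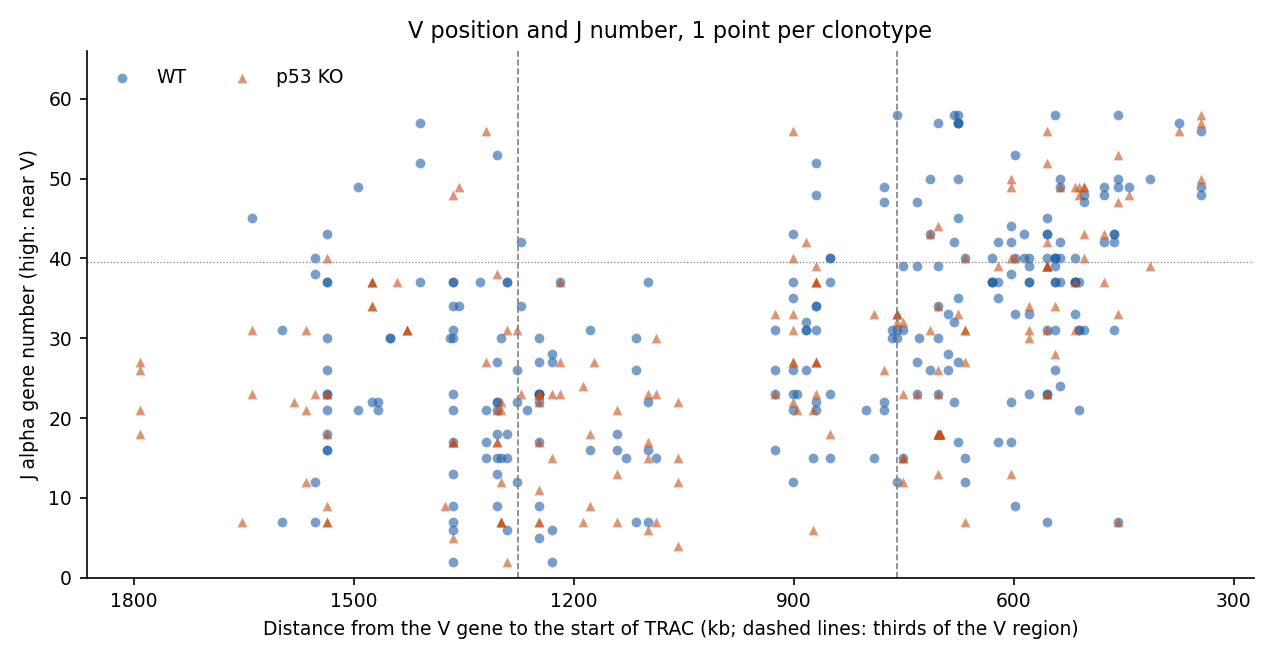
J alpha gene number (y axis) against the distance of the V gene to the start of TRAC (kb, x axis), 1 point per clonotype, circles for WT and triangles for p53 KO, with dashed lines at the borders of the 3 parts of the V region and a dotted line below J number 40. Points above the dotted line gather on the right, near J, where 53 WT and 26 p53 KO clonotypes lie, and the points at the far right edge are all at J number 39 or above.

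The V genes found closest to the J array were joined to genes near V in nearly every clonotype. TRAV17 (chr14:53806639-53807115), TRAV19 (chr14:53845322-53845827) and TRAV21-DV12 (chr14:53876016-53876752) were in 5 clonotypes of each library. Those in WT used TRAJ57, TRAJ56, TRAJ50, TRAJ49 and TRAJ48, and those in p53 KO TRAJ58, TRAJ57, TRAJ56, TRAJ50 and TRAJ39. Thus 9 of these 10 loops used a J gene numbered 40 or more. Examples are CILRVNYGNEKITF (TRAV21-DV12 with TRAJ48, WT) and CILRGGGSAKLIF (TRAV21-DV12 with TRAJ57, p53 KO). With 5 clonotypes in each library the exact interval of the share was wide, 47.8 to 100% in WT and 28.4 to 99.5% in p53 KO. At the other end of the locus, families TRAV1 and TRAV2 were in 0 WT and 5 p53 KO clonotypes, whose J numbers ran from 7 to 27.

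Among the 12 V families with 10 or more clonotypes, the median J number ran from 17 in TRAV8 to 37 in TRAV5 and TRAV16. TRAV8 had 0 of 16 clonotypes with a J gene of 40 or more, and TRAV13 had 12 of 32 (37.5%), the highest share among these families. The median was 22 in TRAV12, 23 in TRAV3, 27 in TRAV6, 27.5 in TRAV4, 28.5 in TRAV10, 30 in TRAV7 and TRAV14, and 31 in TRAV9 and TRAV13. Many families of the C57BL/6 locus are repeated along it in blocks, with the suffix D or N on the genes of the blocks farther from J. Genes without suffix lay mostly near J, but 7 clonotypes of each library had one that lay farther out than every D or N gene found, such as TRAV3-1 and TRAV6-2. Within families 3 to 16, genes without suffix had J of 40 or more in 40.9% of 127 WT clonotypes and 27.2% of 81 from p53 KO. Genes with D or N had it in 9.24% of 119 and 7.53% of 93. Without those 7 clonotypes the genes without suffix had it in 41.7% of 120 and 29.7% of 74. In all 11 families with 5 or more clonotypes on each side, libraries together, the median J number was higher for the genes without suffix, also without the far genes. It was 43 and 25 in TRAV13, 40 and 18 in TRAV12, 39 and 22.5 in TRAV3, and 19 and 17 in TRAV8. Within single libraries and with 3 or more clonotypes on each side, it was higher in 11 of 11 families in WT and 6 of 8 in p53 KO, TRAV6 and TRAV8 being the exceptions. The copies are nearly identical, so single assignments are uncertain, and this split was chosen after seeing the data.

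Cells with 2 alpha chains can show the J genes used on both copies of the locus, though that origin was not established for the cells here. There were 34 such cells in WT and 36 in p53 KO, in 32 and 34 clonotypes, and 0 cells with 3 or more alpha chains. In WT the J genes of both chains lay within 10 numbers of each other in 22 of 32 clonotypes (68.8%, 49.99 to 83.9), and the median distance was 9 numbers (quartiles 5 and 13.3). Alpha chains paired across different WT clonotypes were within 10 numbers in 41.5% of pairs, with a median distance of 13. In p53 KO the share was 15 of 34 (44.1%, 27.2 to 62.1), with a median distance of 12.5 (quartiles 8 and 20), beside 41.7% and 13 across clonotypes. So by the cut of 10 numbers and the median distance, the chains of a cell lay closer together than chains of different clonotypes in WT. In p53 KO both measures were close to those across clonotypes, and the intervals of the libraries overlapped. Both chains lay in the same bin in 8 of 32 WT clonotypes (25%, beside 20.3% across clonotypes) and 6 of 34 from p53 KO (17.6%, beside 19.8%), a smaller contrast in WT. Distances above 20 numbers were seen in 4 WT and 9 p53 KO clonotypes, and the longest were 29 and 36. The p53 KO pairs comprised 32 distinct pairs of alpha sequences, since 2 of them were each in 2 clonotypes.

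**Figure D5:**
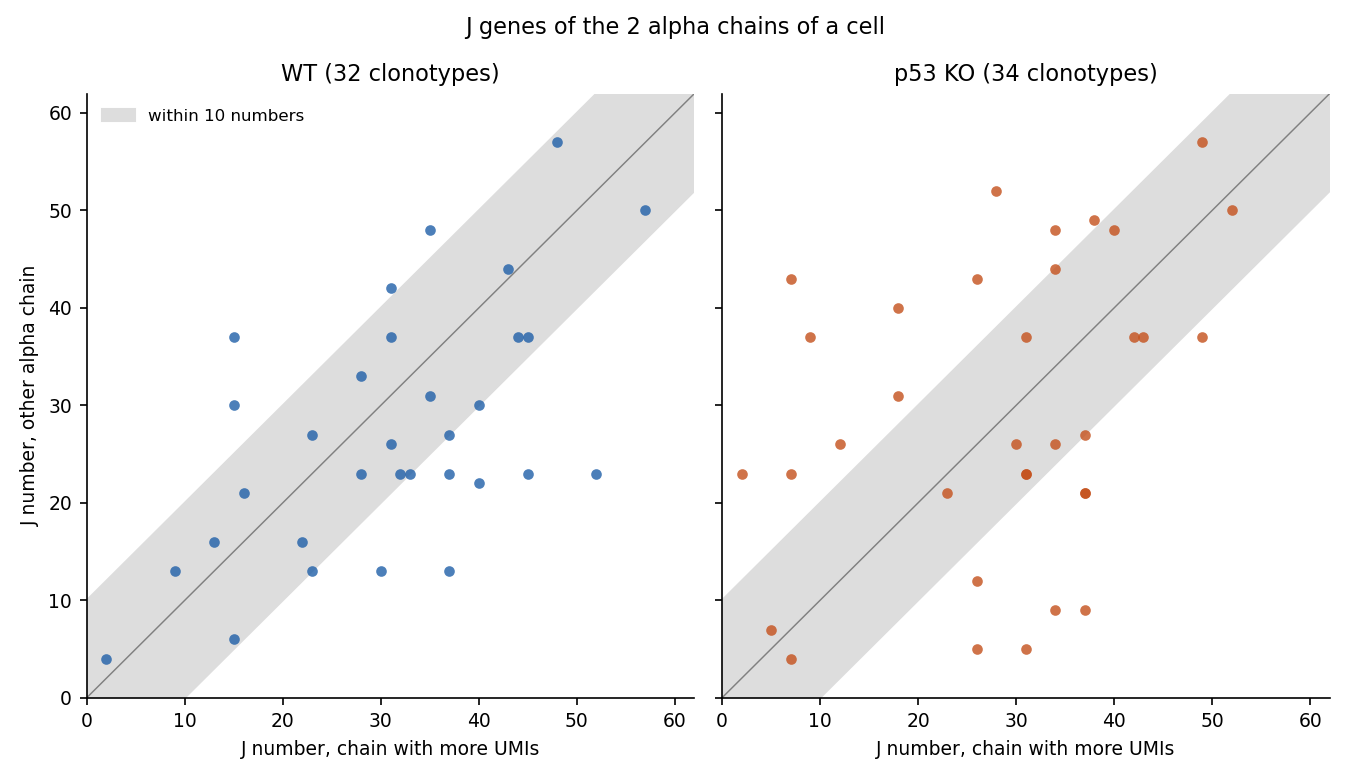
J number of the alpha chain with more UMIs (x axis) and of the other alpha chain (y axis), 1 point per clonotype with 2 alpha chains, WT on the left and p53 KO on the right, with the grey band marking pairs within 10 numbers. In WT 22 of 32 points lie in the band and in p53 KO 15 of 34, with more p53 KO points far from the diagonal.

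Both chains were numbered 40 or more in 3 clonotypes of each library and neither in 21 of each. The second chain had a median of 4 UMIs in WT and 3 in p53 KO, with a single UMI in 2 and 7 clonotypes. A second beta chain, which can mark 2 cells captured together, was in 5 WT and 9 p53 KO clonotypes of this kind. Without cells of 2 or more beta chains the shares within 10 numbers were 74.1% (20 of 27) in WT and 48% (12 of 25) in p53 KO. With 2 or more UMIs on both chains they were 70% (21 of 30) and 40.7% (11 of 27). The difference between the libraries was as large in these counts. Cells captured together that show a single beta chain would remain in them, and their part was not tested.

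A difference in the share of J genes numbered 40 or more between clonotypes with and without a beta chain was not detectable at this depth. Genes numbered 40 or more were in 58 of 211 WT clonotypes with a paired cell (27.5%, 21.6 to 34.0) and in 10 of 40 with an alpha chain alone (25%, 12.7 to 41.2). In p53 KO they were in 30 of 168 (17.9%, 12.4 to 24.5) and 3 of 16 (18.8%, 4.05 to 45.6). The median J number was 31 in both groups in WT. In p53 KO it was 26.5 with a paired cell and 33 among the 16 with an alpha chain alone. The median UMIs per contig by bin ran from 4 to 6 in WT and from 3 to 6 in p53 KO. In p53 KO both bins next to V had a median of 3 UMIs and the bin below 10 had 6, and the part of this depth in the p53 KO shares was not tested beyond the count of contigs with 3 or more UMIs, where 27.1% in WT and 15.8% in p53 KO were at 40 or more.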

How the data were processed

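Receptor libraries were made with 10x 5' chemistry from whole tumours, per the labels' protocols. Cell Ranger 6.1.1 and mm10 were used, per the submitters' processing notes, and the sources used here do not name the receptor reference. The authors deposited filtered contigs with UMI and read counts per contig as whole numbers, per the file headers. The counts were not normalized, and all contigs were marked high-confidence, full-length and productive. Gene expression libraries (2 samples) were not used here.

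Python 3.11.15 with pandas 2.3.3, scipy 1.17.1 and statsmodels 0.14.6 was used. Each clonotype was counted once, by its alpha contig with most UMIs. PCR reads are not independent molecules, so UMIs ranked contigs. No genome came with the data, so the J-encoded part was read from the consensus of distinct CDR3 nucleotide sequences of a gene, aligned at their 3' ends and limited to the annotated gene length. Doublets were not removed. Cells with 2 or more beta or 3 or more alpha chains were left out in an alternative. Scripts were tested on simulated data. A fold of 1.5 in genes of 10 or more clonotypes marked usage differences. Coordinates are RefSeq's for GRCm38.p6.

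Named genes were the 5 most used per library, the leading gene of each bin per library, at most 5 of the highest and 5 of the lowest ratios past the fold, TRAJ18 and TRAJ33, the 3 longest and 3 shortest J-encoded ends (ties by name), and V families in 10 or more clonotypes. TRAJ18 joined to TRAV11 or TRAV11D counted as an NKT chain, and TRAJ33 joined to TRAV1 as a MAIT chain. Members, lists and bins were chosen with earlier results of these data known.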

Additional observations from a re-analysis of the deposited data

How the results depend on the processing

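No paired analysis was possible because each genotype had 1 library. Of 644 values recomputed under alternatives, 624 kept their direction and stayed within the limit set for their kind (the counting interval for a share, difference or ratio, and 1.5 times for a number of genes), 7 moved further and 13 turned. By alpha sequences means every distinct sequence, second chains included. The cause was not tested. The p53 KO minus WT difference turned to 5.04 points by cells and 3.68 by contigs in 30-39, to -3.17 and -2.79 in 20-29, and to -0.511 by contigs and -0.00605 by alpha sequences in 10-19. Genes higher in p53 KO were 4 in place of 7 by alpha sequences, and genes lower were 3 by alpha sequences and 4 with 3 or more UMIs. Ratios turned for TRAJ43 (1.80 by cells, 1.92 by contigs), TRAJ37 (1.45 and 1.42), TRAJ17 (0.828 and 0.810) and TRAJ26 (1.06 by contigs). Leaving out both TRAJ18 chains, chosen after seeing the data, gave TRAJ18 a ratio of 1.44 and p53 KO 10.4% of J below 20 with near V genes. Within 5 numbers, alpha pairs were 31.3% in WT (21.4% across clonotypes) and 17.6% in p53 KO (22.3%).

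With 251 and 184 clonotypes, single genes rest on few counts. Clones differ between mice, and the number of mice is not known here. The J difference between genotypes, the lower UMI depth of p53 KO and its recurring alpha chains come with the same library and cannot be told apart.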

Other observations

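The counts in this paragraph are over all alpha contigs, second chains included. The same J gene and CDR3 residues occurred in both libraries in 10 cases. That was 3.82% of the 262 distinct WT and 5.71% of the 175 distinct p53 KO combinations of J gene and CDR3. V genes were not matched and differed between the libraries in several cases, such as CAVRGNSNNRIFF (TRAV3-3 in WT, TRAV9D-1 in p53 KO). The shared loops came from 6 J genes, and 4 of the 10 used TRAJ23. Those 4 were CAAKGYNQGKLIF, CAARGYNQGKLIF, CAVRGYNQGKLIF and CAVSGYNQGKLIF, which differ before the J-encoded end. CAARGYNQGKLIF was written by 3 nucleotide sequences in each library and was in 3 WT and 4 p53 KO clonotypes. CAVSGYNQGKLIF was in 1 WT and 6 p53 KO clonotypes. TRAJ31 gave 2 of the shared loops, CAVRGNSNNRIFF and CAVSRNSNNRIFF, and TRAJ37, TRAJ40, TRAJ21 and TRAJ5 gave 1 each. No nucleotide sequence of a shared loop was the same in both libraries (0 of 10).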
